A study of Mus musculus with 4 samples.

Results

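The regions described here were promoters with an ATAC-seq peak in both libraries of the bisphenol A (BPA) group and in neither control library. ATAC-seq uses a transposase that cuts accessible DNA, and a peak marks a site where the cut fragments pile up. The peaks of the 4 lists on chromosomes 1 to 19 were pooled, and intervals sharing at least 1 bp were merged into 144198 regions. A promoter was 500 bp either side of the start site of a curated RefSeq transcript on mm10, and 15166 merged regions touched one. Of these, 671 had a peak in both BPA lists and in neither control list, and they are called BPA-only promoter regions below. They belonged to 692 of 24963 genes with a curated start site.

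All 4 libraries were made from visceral fat of 8-week-old CD-1 mice, which are an outbred stock. The 2 BPA animals descended from dams injected with BPA at 50 mg/kg on embryonic days 7.5 to 13.5, and the 2 control animals from dams given sesame oil. BPA is a compound used in making plastics, and it can bind oestrogen receptors. The sample labels and the study text place the BPA animals in different generations, so the generation is not stated here, and neither sex nor batch was labelled. The deposited peak list of the sample labelled as BPA replicate 2, called BPA 2 here, carries replicate number 3 in its name. The study text states that the sampled animals were not dosed themselves, and that the BPA and control lines were bred separately. It also reports evidence that DNA variants differing among CD-1 animals can alter the binding of transcription factors. Each library was one animal, and every value below is a single library. A difference between the groups in handling or in inherited variants, if there was one, cannot be told apart from the exposure of the ancestors.

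The regions were chosen by the presence and absence of peaks in these same libraries, so their absence from the controls is the rule and not a result. No test between groups was run, since the smallest two-sided exact permutation p with 2 libraries against 2 is 0.333. The BPA-only share was 4.42% of the promoter regions and 9.48% of all merged regions. The mirror pattern, a peak in both control lists and in neither BPA list, is called control-only below. It held for 121 promoter regions, 0.798% of them. Over all merged regions, 13673 were BPA-only and 7616 control-only. Promoter regions made up 4.91% of the former and 1.59% of the latter. Promoters with a peak in all 4 lists numbered 12043.

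Adipose tissue holds adipocytes together with a dense net of capillaries, with macrophages, fibroblast-like progenitors, nerves and a few other cell types. Endothelial cells line the vessels, and their identity is set by ETS-family and SOX factors that act on promoters and enhancers of genes such as Cdh5 and Tie1. In a whole-tissue sample, more cells of a type and a more accessible promoter in each cell cannot be told apart.

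Promoters of endothelial genes are shown first, since that list held the most BPA-only promoters. Of the 20 best-ranked regions 3 lay at genes of that list, Tie1, Eng and Ecscr. Each line gives the 200 bases of the mm10 reference just before the start site nearest the peak summit, written 5′ to 3′ in the sense of the gene. The RefSeq assembly GRCm38.p6 supplied the sequence. Capitals mark the letters AGGAAG or CGGAAG on either strand, a core that ETS factors can bind. The first 5 are among the best-ranked endothelial genes, and windows with more than 30 bases of annotated exon were left out. C1qb, Notch4 and Hoxb6 are the best-ranked genes of the macrophage list, the Notch list and the Hox family under the same limit on exons.
Tie1, chr4:118489850-118490049, minus strand: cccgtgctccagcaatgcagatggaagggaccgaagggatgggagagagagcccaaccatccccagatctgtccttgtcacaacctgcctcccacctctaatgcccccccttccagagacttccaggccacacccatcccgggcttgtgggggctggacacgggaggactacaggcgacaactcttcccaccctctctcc
Eng, chr2:32646395-32646594, plus strand: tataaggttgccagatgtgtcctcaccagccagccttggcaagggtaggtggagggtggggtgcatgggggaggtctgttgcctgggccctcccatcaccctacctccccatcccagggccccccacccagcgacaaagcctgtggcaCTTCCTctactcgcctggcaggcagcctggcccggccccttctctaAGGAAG
Erg, chr16:95459349-95459548, minus strand: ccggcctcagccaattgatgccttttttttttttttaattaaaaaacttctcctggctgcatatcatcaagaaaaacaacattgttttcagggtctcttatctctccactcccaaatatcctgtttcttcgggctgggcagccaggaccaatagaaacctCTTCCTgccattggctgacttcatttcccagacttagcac
Ptprb, chr10:116301174-116301373, plus strand: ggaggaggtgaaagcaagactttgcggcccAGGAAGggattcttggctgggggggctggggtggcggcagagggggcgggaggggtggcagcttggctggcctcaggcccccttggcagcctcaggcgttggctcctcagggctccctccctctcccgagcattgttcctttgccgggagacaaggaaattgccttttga
Egfl7, chr2:26583665-26583864, plus strand: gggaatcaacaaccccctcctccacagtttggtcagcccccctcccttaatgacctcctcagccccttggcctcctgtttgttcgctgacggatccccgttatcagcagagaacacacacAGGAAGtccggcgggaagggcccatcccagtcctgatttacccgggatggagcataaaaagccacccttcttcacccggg
C1qb, chr4:136886201-136886400, minus strand: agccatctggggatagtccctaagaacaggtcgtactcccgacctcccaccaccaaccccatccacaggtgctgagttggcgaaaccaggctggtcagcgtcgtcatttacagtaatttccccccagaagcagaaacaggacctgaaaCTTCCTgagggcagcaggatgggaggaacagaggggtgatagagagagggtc
Notch4, chr17:34564095-34564294, plus strand: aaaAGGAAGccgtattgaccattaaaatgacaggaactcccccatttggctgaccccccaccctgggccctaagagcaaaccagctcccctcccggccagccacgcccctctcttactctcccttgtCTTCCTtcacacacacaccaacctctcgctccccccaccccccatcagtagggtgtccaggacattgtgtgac
Hoxb6, chr11:96298874-96299073, plus strand: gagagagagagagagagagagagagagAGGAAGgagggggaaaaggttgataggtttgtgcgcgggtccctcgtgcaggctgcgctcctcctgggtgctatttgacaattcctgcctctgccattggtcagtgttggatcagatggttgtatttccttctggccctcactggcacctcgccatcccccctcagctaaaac

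Of these 8 windows, 7 held the capitalised letters and that of Tie1 did not. In Hoxb6 the match lay outside the BPA-only region, so 6 windows held one inside it. These windows were picked by rank and list, and windows of the same length held the letters at 34.9% of all start sites, 39.3% of BPA-only start sites and 39.3% of those open in all 4 libraries. At the 19 BPA-only start sites of the endothelial list it was 13 (68.4%). In Eng the match nearest the gene began 6 bases before the start site, and another began 52 bases before it. The match in Erg began 40 bases before the start site, that in C1qb 52 and that in Egfl7 80. These are letter matches in the reference genome, not measured binding sites, and variants carried by the CD-1 animals were not examined.

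Ranks were taken within each library's own list by the authors' −log10 q-value, as a percent of that list, so that 0 is the strongest peak. The BPA-only promoter regions had a median rank of 62.9% in BPA 1 and 42.9% in BPA 2. Promoters with a peak in all 4 lists had median ranks of 9.52% and 6.66% in the same lists. Most BPA-only promoters were thus called from peaks of middling or low rank. Only 42 of 671 (6.26%) lay in the best 25% of both BPA lists, and 214 (31.9%) in the best 50% of both. Their median summit pile-up, the number of overlapping fragments recovered from the authors' fold and p-value, was 15 in BPA 1 and 46 in BPA 2. At promoters with a peak in all 4 lists it was 77 and 259. Control-only promoters were of middling or low rank too, at medians of 56.0% in control 1 and 60.1% in control 2. Of these, 4.13% lay in the best 25% of both control lists and 19.8% in the best 50%. BPA 1 was the shallowest library and BPA 2 the deepest, with lowest local backgrounds of 1.16 and 3.80 against 2.85 and 2.70 in the controls. In 559 of the 671 regions the pile-up in BPA 1 exceeded the lowest pile-up listed in either control, which was 9. These pile-ups were not scaled for depth.

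**Figure D1:**
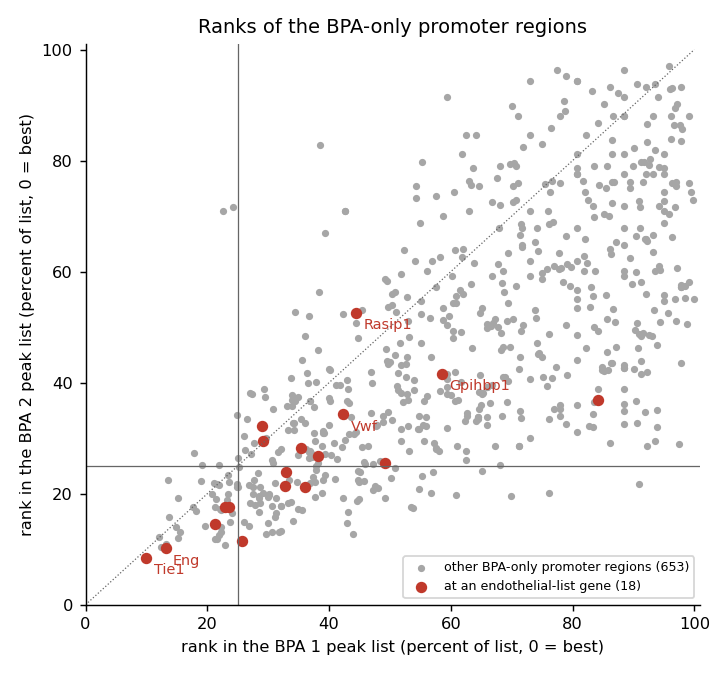
Rank of each of the 671 BPA-only promoter regions in the BPA 1 list (horizontal) and the BPA 2 list (vertical), as a percent of the list, with 0 the strongest peak. Each point is one region, red points are the 18 regions at endothelial-list genes, the solid lines mark 25% and the dotted line marks equal rank. Tie1 and Eng lie near the origin, and the median ranks are 62.9% and 42.9%.

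Tie1, an orphan receptor tyrosine kinase of the angiopoietin pathway found on endothelial cells, had the best-ranked BPA-only promoter. Its region on chr4:118489407-118490157 had a pile-up of 56 in BPA 1 and 162 in BPA 2, a fold over local background of 14.6 and 13.6, and ranks of 10.0% and 8.44%. The nearest control peak lay 9944 bp away. Eng encodes endoglin, a TGF-beta co-receptor of vessels. Its region on chr2:32646129-32647945 ranked at 13.2% and 10.1%, with pile-ups of 63 and 191. Bcl6b, a zinc finger repressor related to Bcl6, ranked at 10.0% and 8.35% with pile-ups of 106 and 318. Its summit lay 765 bp upstream of the start site, so only the flank of the peak reached the promoter.

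Other genes of the vessel wall stood among the 20 best-ranked regions. Ecscr, an endothelial surface protein, ranked at 21.3% and 14.5%. Pcdh12, a protocadherin of endothelial cells, ranked at 20.8% and 19.9%. Cd300lg, a receptor-like protein of capillary endothelium, ranked at 15.2% and 19.2%, and a control peak lay 805 bp from it. Genes of the major histocompatibility complex were also present. H2-K2, a class I gene, ranked at 12.4% and 10.5%, and H2-DMb2, a chain of the class II peptide-loading protein, ranked at 15.2% and 12.0%. Both have near-identical relatives, and the authors kept uniquely mapped reads only, so reads shared between copies are missing from these values.

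Of the 20, only Tie1, Eng and Ecscr belonged to a list used. Bcl6b, Pcdh12, Cd300lg, H2-K2, H2-DMb2 and the genes that follow were in none. Bcat2, the mitochondrial branched-chain aminotransferase, had pile-ups of 75 and 199 and ranks of 13.3% and 10.9%. Ak1, an adenylate kinase, ranked at 18.1% and 16.9%. Cd300a, an inhibitory receptor of leukocytes, had pile-ups of 31 and 83, and St6galnac2, a sialyltransferase, 49 and 137. Zfp764, a zinc finger gene, had one of the smaller pile-ups of the 20, at 26 and 75, but a fold of 12.5 and 14.4. Odf3b, Efcc1 and Filip1 and the uncharacterised Gm32865, Gm13387, AI839979 and D630033O11Rik completed the 20, with ranks from 11.8% to 21.7%.

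Gene lists were then counted against the share over all genes, which was 2.77%, or 4.29% of the 16133 genes with a promoter peak in any library. Of 36 genes in the endothelial list, 17 (47.2%) had a BPA-only promoter. They were Pecam1, Cdh5, Tie1, Emcn, Erg, Sox18, Egfl7, Eng, Robo4, Vwf, Ptprb, Gpihbp1, Ecscr, Icam2, Aplnr, Rasip1 and Arhgef15. A further 16 had a peak in all 4 libraries, Plvap had none, Sox17 lacked one in control 2 only, and Mmrn2 had one in control 2 and BPA 2 only. No gene of any list had a control-only promoter, a pattern found at 0.497% of all genes. The endothelial list was known from earlier results to stand out, and no set test was run.

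**Figure D2:**
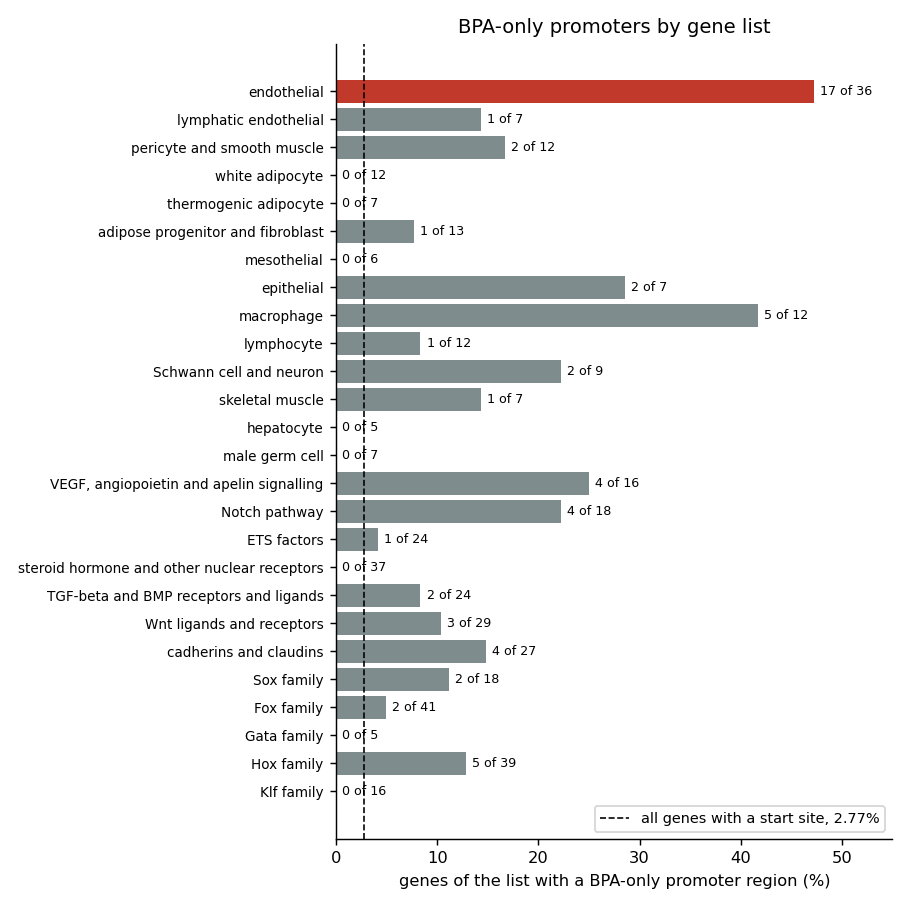
Percent of the genes of each list that had a BPA-only promoter region (bars), with the number of genes beside each bar. The dashed line is the share over all 24963 genes, 2.77%. The endothelial list reaches 47.2%, and the adipocyte, mesothelial, hepatocyte, germ cell, nuclear receptor, Gata and Klf lists have no such gene.

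The 17 endothelial genes covered junctions, surface receptors, secreted proteins and transcription factors. Among junction genes, Cdh5, which encodes VE-cadherin, had pile-ups of 39 in BPA 1 and 96 in BPA 2 and ranks of 29.0% and 32.2%. Pecam1, the adhesion molecule CD31, had pile-ups of 30 and 86, ranks of 32.9% and 23.9% and a summit 16 bp before its start site. Icam2 ranked at 23.6% and 17.7%. Ptprb, the phosphatase that restrains Tie2 signalling, had pile-ups of 36 and 154. Each of these peaks was larger in the deeper library BPA 2.

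Of the transcription factors, Erg, an ETS factor that maintains endothelial identity, had pile-ups of 43 and 134 and ranks of 23.0% and 17.7%. Sox18 had pile-ups of 46 and 141 and ranks of 36.0% and 21.1%. Vwf, the clotting protein stored in endothelial granules, had one of the smaller signals, with pile-ups of 17 and 48 and a summit 3 bp before its start site. Gpihbp1, which carries lipoprotein lipase to the capillary lumen, ranked at 58.5% and 41.7%. Rasip1, a regulator of vessel lumen formation, ranked at 44.5% and 52.6%, with a control peak 654 bp away. Egfl7, a secreted endothelial factor, had 2 separate BPA-only promoter regions, of which the weaker ranked at 84.2% and 37.0%. In Robo4 the BPA 1 and BPA 2 summits lay 1237 bp apart.

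The endothelial genes with a peak in all 4 libraries were also ranked. They come from the same libraries and the same q-values as the rule and are a description, not separate support. They are named after their values were seen. For 13 of the 16 with a peak in all 4 libraries, a peak of every list touched the promoter window itself. Their median rank was 32.4% in control 1 and 33.0% in control 2, against 16.6% in BPA 1 and 11.7% in BPA 2. Both BPA ranks were better than both control ranks in 11 of the 13 (84.6%), and the reverse occurred in none. Over all 12915 such genes the first pattern held in 41.0%, and the reverse in 18.6%. The exceptions among the 13 were Ets1 and Esam. Other lists lay above the share over all genes too, with 12 of 16 genes in the Hox family, 6 of 8 in the VEGF, angiopoietin and apelin list, 13 of 20 in the TGF-beta and BMP list, 8 of 13 among ETS factors and 12 of 20 in the Fox family. It was 3 of 10 for white adipocyte genes and 1 of 8 for the Notch pathway.

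Kdr, the main receptor for VEGF-A, ranked at 32.4% and 33.0% in the controls and at 14.6% and 11.3% in the BPA lists. Tal1, a factor of endothelial and blood cells, ranked at 33.7% and 45.7% against 18.6% and 14.1%. Gata2, another factor of both lineages, ranked at 46.2% and 56.6% against 14.0% and 16.7%. For the 10 white adipocyte genes with a peak in all 4 libraries, the median ranks were 43.7% and 20.6% in the controls and 56.1% and 35.0% in the BPA lists. Both BPA ranks were better in 3 of these 10.

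**Figure D3:**
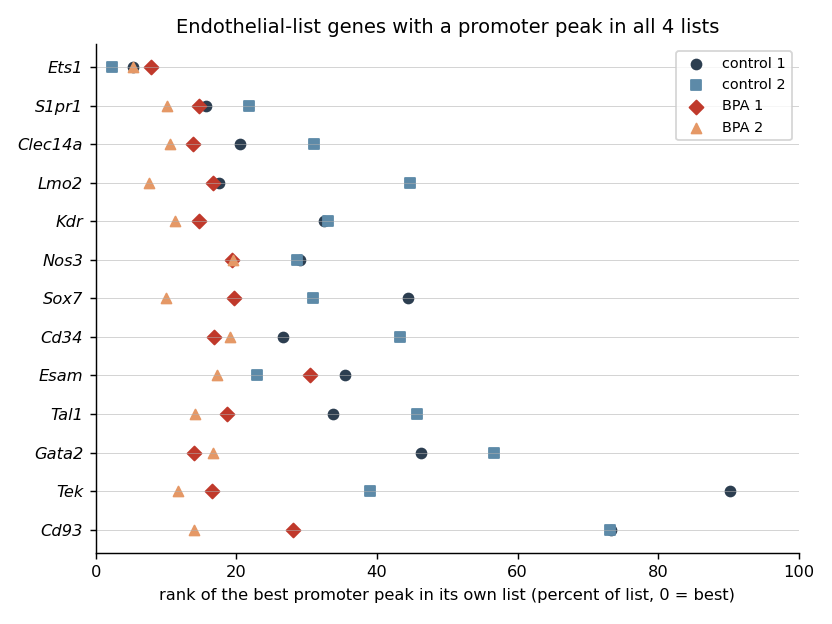
Rank of the best promoter peak in its own list (percent of the list, 0 = best) for the 13 endothelial-list genes with a promoter peak in all 4 lists, with one marker per library. The BPA markers lie to the left of both control markers in 11 genes, and Ets1 and Esam are the exceptions.

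In the macrophage list 5 of 12 genes (41.7%) had a BPA-only promoter, a share close to that of the endothelial list over a shorter list. C1qb and C1qa, chains of the complement component C1q, ranked at 40.8% and 29.1% and at 43.1% and 38.8%. Mrc1, the mannose receptor, ranked at 42.4% and 34.0%. Cd68, a lysosomal protein, ranked at 24.2% in BPA 1 but 71.7% in BPA 2, and Cx3cr1, the fractalkine receptor, at 97.8% and 57.2%. Adgre1, Spi1 and Cd14 were open at the promoter in every library, and Csf1r and Cd163 in none. The list is short, and its members ranked below most of the endothelial genes.

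None of the 12 white adipocyte genes and none of the 7 thermogenic genes had a BPA-only promoter. With a share of 2.77% over all genes, finding none in lists so short is not a result. In the white adipocyte list 10 had a peak in all 4 libraries. One gene each was found for the lymphatic (Lyve1, 1 of 7), progenitor and fibroblast (Pi16, 1 of 13), lymphocyte (Il7r, 1 of 12) and skeletal muscle (Tnnt3, 1 of 7) lists. The pericyte and smooth muscle list had 2 of 12, Rgs5 and Notch3. The epithelial list had 2 of 7, Cdh1 and Cldn7, and the Schwann cell and neuron list 2 of 9, Tubb3 and Stmn2. At Cldn7 only the BPA 2 peak touched the promoter window. Mesothelial, hepatocyte and male germ cell lists had none. Rgs5, a regulator of G-protein signalling in pericytes, rested on a pile-up of 8 in BPA 1, at a rank of 90.3%. That is below the lowest listed control pile-up, but BPA 1 was shallower than the controls, so the pile-ups are not on the same scale. Lyve1, the hyaluronan receptor of lymphatic vessels, ranked at 26.9% and 38.1%.

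The vascular signalling lists overlapped the endothelial one. In VEGF, angiopoietin and apelin signalling, 4 of 16 genes had a BPA-only promoter: the ligand Pgf, which binds the VEGF receptor Flt1, the receptors Tie1 and Aplnr, and the phosphatase Ptprb. Pgf ranked at 54.8% and 31.7%. In the Notch pathway, 4 of 18 genes had one: the receptors Notch3 and Notch4, the ligand Dll4 and the target Hes5. Notch4, a receptor of endothelial cells, ranked at 22.9% and 10.8% with pile-ups of 46 and 188. Dll4, the ligand of endothelial tip cells, ranked at 28.7% and 21.2%, and a control peak lay 69 bp from its region. In Notch3 the BPA 1 and BPA 2 summits lay 1171 bp apart, and only the BPA 2 peak touched the promoter window.

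Of the 24 ETS factors only Erg had a BPA-only promoter, and 16 had a peak in all 4 libraries. None of 37 nuclear receptors, the family that includes the oestrogen receptors, had one, and 33 had a peak in all 4. With a share of 2.77% over all genes, finding none in a list of this length is not a result. The TGF-beta and BMP list had 2 of 24, Eng and Gdf10. The Wnt list had 3 of 29, Wnt5b, Wnt11 and Wnt16, of which Wnt16 ranked at 92.3% and 86.6% with a control peak 20 bp away. Both Wnt5b and Wnt11 also had another promoter with a peak in all 4 libraries. Cadherins and claudins had 4 of 27, Cdh1, Cdh5, Cdh15 and Cldn7. The Sox family had 2 of 18, Sox15 and Sox18, and the Fox family 2 of 41, Foxd4 and Foxe1. None of 5 Gata and none of 16 Klf genes had one. The shares of ETS factors (4.17%) and the Fox family (4.88%) lay near the 4.29% of genes with a promoter peak in any library.

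The Hox family, which sets position along the body axis, had 5 of 39 genes, Hoxa10, Hoxb6, Hoxb9, Hoxc10 and Hoxd13. Hoxb6 ranked best, at 30.1% and 19.9%, with pile-ups of 40 and 140. Hoxc10 ranked at 34.4% and 36.6%. Hoxa10 ranked at 76.6% and 76.3%, and its other promoter had a peak in control 2 and in both BPA libraries. Hoxb9 ranked at 83.4% in BPA 1 and 32.1% in BPA 2. The 5 came from all 4 Hox clusters, with a pair in the B cluster.

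MicroRNA hairpins have curated start sites of their own, and 28 of 1090 (2.57%) fell in BPA-only promoter regions, near the 2.77% of all genes. The start of a hairpin need not be where its primary transcript begins, so these regions are promoters by annotation only. Mature sequences from RefSeq were found for 25 of the 28. The best-ranked and the most studied are printed with the seed, bases 2 to 8, in capitals. They were chosen after their values were seen.
mmu-miR-342-3p: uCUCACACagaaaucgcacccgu
mmu-miR-342-5p: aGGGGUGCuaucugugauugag
mmu-miR-199b-3p: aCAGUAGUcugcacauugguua
mmu-miR-9-5p: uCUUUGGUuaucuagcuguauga
mmu-miR-9-3p: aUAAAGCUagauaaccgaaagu
mmu-miR-146a-5p: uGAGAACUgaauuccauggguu
mmu-miR-33-5p: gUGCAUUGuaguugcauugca

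Mir342 ranked at 22.0% and 21.5% and Mir199b at 23.5% and 22.1%, while Mir146 ranked at 88.5% and 81.2%. Mir9-1 and Mir9-3 carry the same mature arms and so the same seeds, and both had a BPA-only region, at ranks of 37.5% and 35.7% and of 84.3% and 75.6%. No other seed was shared between the 25 hairpins.

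Where in the gene the signal sat was examined next. The BPA 2 summit lay a median of 176 bp from the nearest start site, against 99 bp at promoters with a peak in all 4 lists. It lay within 100 bp in 33.7% against 50.4%. In 137 regions (20.4%) it lay beyond 500 bp, against 7.28%, so that only the flank of the peak reached the promoter window. Control-only promoters had like values in control 2, with a median of 185 bp, 33.9% within 100 bp and 22.3% beyond 500 bp. The BPA 1 and BPA 2 summits were a median of 87 bp apart, against 54 bp. In 615 regions both BPA peaks touched a promoter window themselves. In 52 only the BPA 2 peak did, and in 4 only the BPA 1 peak. The regions had a median width of 945 bp, against 1489 bp. No coding start site was present in 127 (18.9%), against 4.38%, and control-only promoters were similar in this at 18.2%.

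Regions touching a control peak were outside the rule, and no gap was computed for other positions as a background. The median gap to the nearest control peak was 5809 bp. It was 1000 bp or less in 58 regions (8.64%) and over 10000 bp in 215 (32.0%). Chromosome 11 had the largest share of BPA-only promoters, 82 of 1260 promoter regions (6.51%), and chromosome 13 the smallest, 17 of 600 (2.83%).

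The CpG content of the BPA-only promoters lay between that of open and closed ones. Over the 500 bases either side of a start site, CpG observed over expected was a median of 0.411 at 748 BPA-only start sites. It was 0.735 at 16098 start sites with a peak in all 4 lists and 0.203 at 10655 with no peak in any. Windows with a G+C content of at least 50% and a ratio of at least 0.6 were called CpG-rich. They made up 30.6% of the BPA-only start sites, 71.6% of those open in all 4 libraries and 4.24% of those with no peak. Median G+C content was 56.0%, 59.5% and 46.6% in the same order. Over the merged regions themselves G+C was nearly equal, at 57.5% in BPA-only promoters and 57.4% in those with a peak in all 4 lists. The 2546 start sites with a peak in only some lists in other patterns lay in the middle as well, at a ratio of 0.378, 53.3% G+C and 26.2% CpG-rich. Control-only start sites lay nearer to closed ones, at 48.3% G+C and 9.09% CpG-rich.

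**Figure D4:**
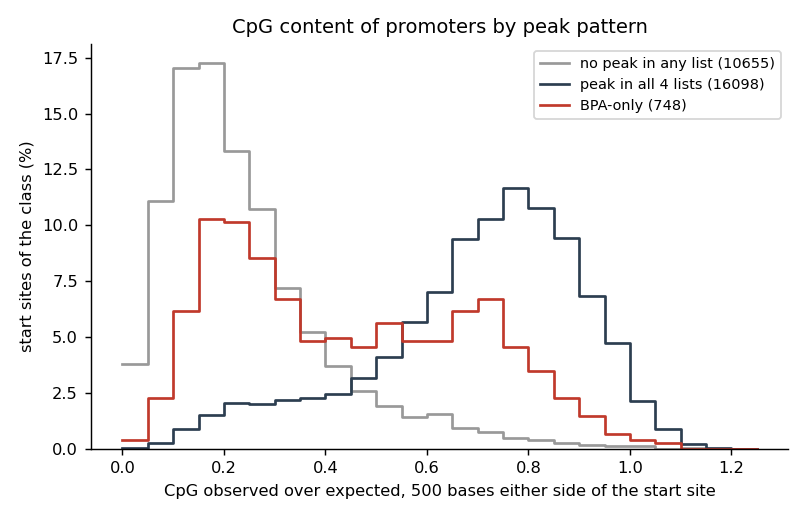
Percent of the start sites of each class (vertical) by CpG observed over expected in the 500 bases either side of the start site (horizontal, bins of 0.05, values above the last bin counted in it). Lines show BPA-only start sites (748), start sites with a peak in all 4 lists (16098) and with none (10655), with medians of 0.411, 0.735 and 0.203.

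Within the BPA-only promoter regions, 217 were CpG-rich over the whole region and 454 were not. The CpG-rich ones ranked lower, at medians of 75.8% and 50.5% against 56.3% and 39.8%. Of the 42 regions in the best 25% of both lists, 36 were not CpG-rich. Only 2 of the 18 regions at endothelial genes were CpG-rich, and none of the 5 at macrophage genes.

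Short motifs were searched on both strands from 250 bases before to 50 bases after each start site. AGGAAG was present at 43.0% of the 748 BPA-only start sites and at 34.1% of all 30179. CGGAAG, the same core with a CpG, was present at 11.5% and 19.5%. Start sites with a peak in only some lists in other patterns held them at 39.5% and 10.1%, close to the BPA-only shares. At the 19 BPA-only start sites of endothelial genes AGGAAG was present in 14 (73.7%), against 11 of 27 (40.7%) at the remaining start sites of the endothelial list. These sets of start sites differed in base composition, with 10.5% and 44.4% CpG-rich. Among CpG-rich BPA-only start sites AGGAAG was present at 27.5%. Whether composition accounts for the difference was not tested. GGGCGG, bound by SP and KLF factors, was present at 40.0% of BPA-only start sites, 43.7% of all and 65.6% of those open in all 4 libraries. TATAAA was found at 9.36% against 12.3% of all, CCAAT at 31.1% against 37.0%, and TGANTCA, the AP-1 motif, at 8.69% against 7.20%. The E-box CACGTG was present at 5.88% against 7.66%, and the cyclic AMP response core TGACGT at 7.22% against 8.24%. The GATA motif GATAAG was found at 6.28% against 6.90% of all, and the SOX motif ACAAAG at 19.7% against 17.3%. Both ETS forms share their last 5 letters and cannot lie on the same bases of a strand.

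Many of these genes had another promoter. Of the 692 genes, 156 had a separate start site whose window did not touch the BPA-only region. In 77 of the 156 (49.4%) at least one such promoter was open in every library, and in 47 (30.1%) none was open in any. Among 1415 genes of promoters with a peak in all 4 lists, a further promoter with a peak in all 4 was found in 33.9% and none with any peak in 46.0%. Among 28 control-only genes the shares were 57.1% and 35.7%.

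The best-ranked genes of this kind were Ak1, Filip1, Septin4, Sh3bp2, Limk1, Lims2, Phactr1, Ece1, Hrh1 and Sirpa. Limk1, a kinase that acts on cofilin, had its BPA-only region at the start site 134678248 of chromosome 5, with ranks of 22.3% and 17.1%. Its promoter at 134688590 had a peak in every library, among the strongest of each list at ranks of 0.121% to 0.943%. Ece1, the endothelin-converting enzyme, had a BPA-only region at 137920793 of chromosome 4 with ranks of 26.1% and 14.9%, and an all-library promoter at 137862237. Phactr1, a regulator of actin and phosphatase 1, ranked at 22.0% and 25.2% at its BPA-only promoter, and its all-library promoter lay 257152 bp away. Sirpa, an inhibitory receptor of macrophages and neurons, ranked at 28.7% and 18.3%.

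BPA-only regions also lay inside these genes away from promoters. Of the 692 genes 186 (26.9%) held at least one, against 16.2% of all genes, with median gene lengths of 14.7 kb and 13.7 kb. In the endothelial group it was 8 of 17, led by Erg with 5, Pecam1 with 4 and Eng with 3. These genes are 227425, 61069 and 36075 bp long, and counts per gene were not scaled for length. Frmd4a with 17 and Magi1 with 14 had the most, and are named after their values were seen.

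The edges of the rule were as follows. The lowest −log10 q-values inside it in BPA 1 were 1.43 at Greb1, 1.56 at Mir33 and 1.80 at Msx2. In BPA 2 they were 2.73 at A930003O13Rik and Lhfpl3, 2.80 at Grik3 and 2.85 at Tlx2. Just outside, Prr5 was kept out by a control 1 peak of 1.34, Ccdc184 by one of 1.39 and Insm1 by a control 2 peak of 1.43. In all, 793 promoter regions had both BPA peaks and a peak in a single control, with a median −log10 q-value of 4.47 for that control peak. By distance, Foxe1 touched its promoter window by 1 bp, 2310005A03Rik by 3 bp and Serpina4-ps1 by 18 bp. The nearest regions left out lay 517 bp from the start site of Mymk, 522 bp from that of Morn3 and 524 bp from that of Olfr1509. These last 5 genes are named for their distance alone.

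For comparison, the best-ranked control-only promoters were those of the histone pair H2ac22 and H2bc22, of Vsig8 and of A030001D20Rik. H2ac22 and H2bc22 ranked at 6.26% in control 1 and 9.30% in control 2, with pile-ups of 56 and 52. Histone genes have near-identical copies, so their reads are uncertain too.

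How strictly peaks were read decided which genes were listed. When each list was held to its best 20000 peaks there were 1082 BPA-only promoter regions at 1161 genes, of which 52 were among the 692. Of the endothelial genes 16 then qualified. Eng, Erg, Ecscr, Icam2, Ptprb and Tie1 were among the 17, and Cd34, Cd93, Cldn5, Flt1, Gata2, Kdr, Nos3, Sox7, Tal1 and Tek came in because their weaker control peaks had been removed. When both BPA peaks had to share at least 50% of both lengths, 415 regions and 12 endothelial genes were left, and Cdh5, Emcn, Erg, Robo4 and Vwf were lost. A −log10 q-value of at least 5 for the BPA peaks alone left 436 regions and all 17 endothelial genes.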

How the data were processed

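The authors trimmed reads with Trim Galore, mapped them to mm10 with Bowtie2 2.3.5.1, kept uniquely mapped reads, removed duplicates with SAMtools and called peaks on each library with MACS2 2.2.7.1, without pooling. Genome size and fragment extension are not given in the sources used here. The deposited lists hold, per peak, a score (10 times the −log10 q-value), a fold ratio of summit pile-up over local background, a −log10 p-value, a −log10 q-value and the summit offset, all computed by the authors. They hold no read totals, so depth is known only through the recovered pile-up and background. Peaks numbered 72375 to 98060 per library, at a q-value threshold of 0.05.

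Overlaps, ranks and sequence features were computed with Python 3.11.15, numpy 2.4.6, pandas 2.3.3 and pysam 0.24.0 on 43783 curated transcripts of GRCm38.p6. The pile-up at each summit was solved from the deposited fold and p-value, to a relative error of 1e-04, for over 99.9% of peaks. Counting and pile-up steps were tested on simulated data. All 335140 peaks used lay within the chromosome lengths.

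The members, the gene lists and the rule for named genes were chosen with earlier results of these data known. That rule named the 20 best-ranked regions by the worse of both ranks, every member gene of a list or of the Sox, Fox, Gata, Hox and Klf families, the 10 best-ranked genes with another promoter open in all libraries, 3 regions on either side of the q-value edge and the 3 best control-only regions. No list was tested for enrichment, and the groups were not tested against each other. The alternatives were other q-value limits, equal numbers of peaks, other promoter widths, stricter overlap, a control gap, summits, coding transcripts only, and leaving out each library. The promoter sequence of one further endothelial gene is not reported here.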

Additional observations from a re-analysis of the deposited data

How the results depend on the processing

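Each of 85 alternative values was set beside the value reported. Of them 62 were unmoved and 23 moved, where counts within 1.5 times of it, and shares within its 95% Wilson interval, were taken as unmoved. For a count this compares size only, not which genes were listed. No paired analysis was possible because the labels gave no pairing of the animals, and no test compared the groups.

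A limit of 5 on the −log10 q-value in every list gave 958 BPA-only regions at 992 genes. These counts were unmoved, but only 450 of the genes (45.4%) were among the 692 reported. The same limit gave 74 control-only regions, and 121 BPA-only regions in the best 25% of both lists. With that limit for BPA peaks only there were 436 BPA-only regions at 449 genes and 188 control-only regions. With the best 20000 peaks there were 1082 regions at 1161 genes, and 972 of the regions were in the best 25%. Ranks stayed those of the whole lists, so most of the kept peaks lay in that range by construction. Of the genes with another promoter, 19.3% then had one open in all 4 libraries. The stricter overlap of BPA peaks gave 415 regions at 428 genes, and was not run for control-only regions. Leaving out 1 library gave 799 (without BPA 2) to 1213 (without BPA 1) BPA-only regions at 814 to 1231 genes, 177 to 346 control-only regions, the most without control 2, and 50 to 127 regions in the best 25%. These counts rise by construction, since fewer lists can add or bar a peak. Without control 1 there were 1129 regions, 327 control-only regions and 98 in the best 25%, and without control 2 there were 1007 and 78. Control-only regions numbered 330 without BPA 2. The number of endothelial genes stayed between 12 and 19 in the alternatives run. The other causes were not tested.

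BPA 1 was the shallowest library, so a low pile-up there marks an uncertain peak, and the lists give no value for promoters without a peak in the controls. A missing control peak says only that no peak passed the authors' threshold.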

Other observations

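The X chromosome was outside the rule. On it 8 of 509 promoter regions (1.57%) were BPA-only and 11 (2.16%) were control-only, against 4.42% and 0.798% on chromosomes 1 to 19. The 8 lay at Shroom4, Dipk2b, Bcorl1, Bgn, Pnck, Btk, Ptchd1 and Bmx, all named after their values were seen. Dipk2b ranked best, with −log10 q-values of 31.2 in BPA 1 and 42.5 in BPA 2. Btk, a kinase of B cells and myeloid cells, ranked at 92.0% and 58.6%, and Bmx, a related kinase of endothelial cells, at 88.5% and 39.2%.

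Summits lay on different sides of the start site in the different lists. At the 12043 promoter regions with a peak in all 4 lists the summit was downstream of the nearest start site in 42.2% for control 1 and 36.2% for control 2. It was downstream in 52.0% for BPA 1 and 58.3% for BPA 2. The median offset was -26 bp, -38 bp, 6 bp and 25 bp in the same order. In the BPA-only regions it was downstream in 56.5% in BPA 1 and 56.9% in BPA 2.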
